A study of Mus musculus with 16 samples.

Results

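Chaperones are the proteins that fold other proteins, and the 38 genes described here encode the main ones of the cytosol, the endoplasmic reticulum (ER) and the mitochondria. The set was fixed by name, with earlier results of these data known. Every one of its genes was present among the 54532 genes of the count table. By role it held 4 cytosolic proteins of the HSP70 and HSP110 families, 5 J-domain proteins of the cytosol and ribosome, 2 cytosolic HSP90 proteins, 7 HSP90 cochaperones, the 8 subunits of TRiC, 8 ER chaperones and 4 mitochondrial chaperones. All 38 passed the filter on low counts in every comparison.

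The RNA came from naive CD8+ T cells of C57BL/6J mouse spleen, activated repeatedly in culture over 4 days into TCF1+CD8+ T cells, and all groups shared that history. Cells were left untreated or received prostaglandin E2 (PGE2) at 100 ng per ml for 1 h. They were then kept for 4 h with IL-2 at 85 U per ml, either alone (unstimulated) or together with anti-CD3/CD28 beads at 1 bead per cell (stimulated). The 4 groups, unstimulated and stimulated with and without PGE2, had 4 replicates each, numbered 1 to 4. The labels do not say what equal numbers share or whether replicates came from separate mice, so a p-value measures only the spread between these samples. Gene counts summed to 22678254 to 42950763 per library. Levels within a gene are given in CPM (counts scaled by library size, with TMM factors over all 16 libraries), and levels between genes in FPKM, which also corrects for gene length. Changes are log2 fold changes with their standard error (SE) and the adjusted p of edgeR's quasi-likelihood test, and a gene rose or fell where that p was below 0.05.

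The 6 CD8 T cell markers (*Cd3d*, *Cd3e*, *Cd3g*, *Cd8a*, *Cd8b1*, *Tcf7*) were all detected and summed to 3476 to 4460 CPM in unstimulated untreated, 3063 to 3934 in unstimulated PGE2-treated, 2756 to 2926 in stimulated untreated and 2454 to 2657 in stimulated PGE2-treated replicates. Markers of other cells were mostly low. The 8 myeloid markers summed to 3.04 to 6.57 CPM over all libraries, mostly *Cd68* (2.65 to 6.19 CPM), with *S100a8* and *S100a9* at 0, and the 6 erythroid ones stayed at or below 0.821 CPM, with 3 at 0. The 3 CD4 T cell markers summed to 14.5 to 40.1 CPM, with *Zbtb7b* at 10.3 to 34.4, *Foxp3* at 3.09 to 9.07 and *Cd4* at or below 1.87 CPM. The 4 NK cell markers summed to 77.9 to 116 CPM in unstimulated untreated, 74.3 to 128 in unstimulated PGE2-treated, 187 to 224 in stimulated untreated and 171 to 199 in stimulated PGE2-treated replicates. That sum was *Klrk1* (46.3 to 135 CPM) and *Eomes* (5.55 to 178 CPM), while *Ncr1* was at 0 and *Klrb1c* at or below 0.0999 CPM. The 6 B cell markers summed to 721 to 841, 504 to 650.0, 246 to 280.2 and 220.4 to 264 CPM in the same order of groups. Nearly all of that sum was *Ighm* (216 to 826 CPM), whereas *Ms4a1* and *Pax5* stayed at or below 0.937 CPM. The part of these transcripts in the chaperone results was not tested. In such bulk RNA, a lower level per cell and fewer cells with the transcript cannot be told apart.

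As background, HSP70 proteins bind short hydrophobic stretches of unfolded chains in an ATP cycle that J-domain proteins start and nucleotide exchange factors end. HSP90 takes over partly folded clients, many of them kinases and hormone receptors, with the help of cochaperones. TRiC, also called CCT, is a barrel of stacked rings in which actin, tubulin and other proteins fold. T cells that are activated through their receptor grow and raise protein synthesis before they divide, and chaperone genes belong to the growth programme that is induced.

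Nearly all of the 38 genes rose on stimulation, 34 without and 36 with PGE2, and with PGE2 most estimates were below 0 in both states. Their share of all counts was 1.42 ± 0.0960% (SD, n = 4) in unstimulated untreated cells and 1.14 ± 0.0893% in unstimulated cells with PGE2. It was 2.26 ± 0.130% in stimulated untreated cells and 1.98 ± 0.202% in stimulated cells with PGE2. The replicates of the stimulated PGE2-treated group were spread most, with 2.17%, 2.13%, 1.85% and 1.76% in replicates 1 to 4. In the stimulated untreated group replicates 1 to 4 had 2.41%, 2.32%, 2.13% and 2.17%, and replicate 1, the highest, was also the deepest library. Ordered by group means in CPM, 34 of the 38 genes followed a single order, in which unstimulated PGE2-treated cells were lowest, followed by unstimulated untreated, stimulated PGE2-treated and stimulated untreated cells. In *Fkbp5* and *Pdia4* the mean of the stimulated PGE2-treated cells lay below that of the unstimulated untreated cells, *Pdia3* was highest in unstimulated untreated cells and *Dnajb1* was highest in unstimulated cells with PGE2. The plot of counts by group shows the most abundant gene of each role beside *Dnajb1*.

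**Figure D1:**
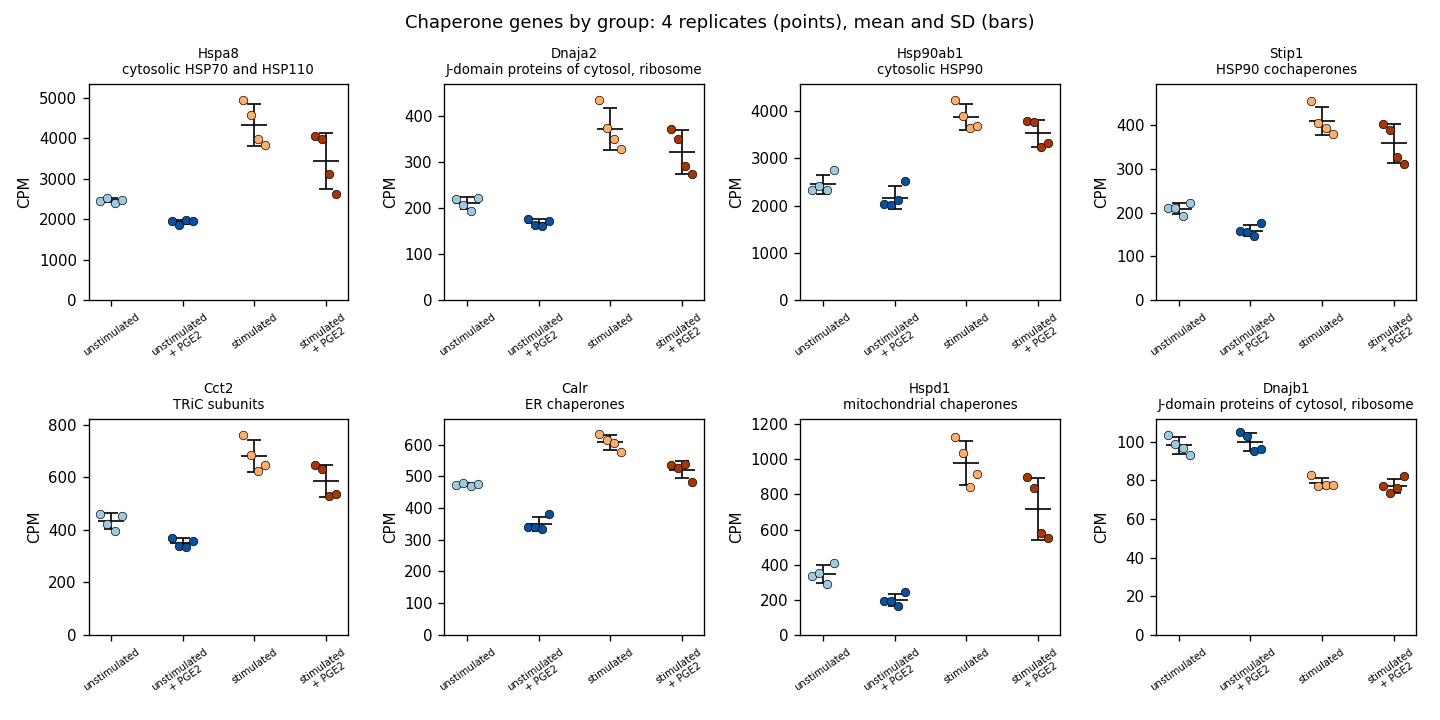
CPM (linear axis from 0) of 8 chaperone genes in the 4 groups; points are replicates 1 to 4 from left to right, the wide bar is the mean and the error bar the SD. In all but Dnajb1 both stimulated groups lie above both unstimulated groups, and Dnajb1 lies between 73.3 and 82.6 CPM in stimulated and between 92.9 and 105 CPM in unstimulated cells.

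Per gene length, the cytosolic HSP90 gene *Hsp90ab1* had the highest level of the set (mean over the 16 libraries 955 FPKM), followed by the constitutive HSP70 gene *Hspa8* (674 FPKM), *Hsp90aa1* (207 FPKM), *Hspd1* (202 FPKM) and *Cct2* (191 FPKM). The lowest were *Fkbp5* (13.6 FPKM), *Dnajc21* (17.2 FPKM) and *Hsph1* (21.0 FPKM). The lowest count of any gene of the set in any library was 1143, for *Dnajc21*, so the spread between replicates and not counting error limited the precision. The coefficient of variation between replicates had a median over the 38 genes of 6.73% in unstimulated untreated, 7.66% in unstimulated PGE2-treated, 9.46% in stimulated untreated and 12.7% in stimulated PGE2-treated cells. *Hsph1* was the most variable of the set in each of the 4 groups, up to 29.4% in stimulated PGE2-treated cells.

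Stimulation was compared first because it moved these genes most. Without PGE2, 34 of 38 genes rose and 2 fell (14205 genes tested), where 31.7% of all genes tested rose and 34.8% fell. The median log2 fold change was 0.80 over the 38 genes and −0.03 over all genes. With PGE2, 36 rose and 1 fell, against 32.5% and 31.7% of 14507 genes, with a median of 0.99 over the set and 0.00 over all genes. A rise of at least 2-fold was reached by 12 genes without and 19 genes with PGE2, shares to be read beside 11.5% and 12.7% of all genes. In 36 of 38 genes the stimulated and unstimulated replicates did not overlap, both without and with PGE2, which held for 61.6% and 60.2% of all genes. The largest rises were those of *Ppid* and *Hsph1* in both settings, and *Dnajb1* fell in both. Over the 38 genes the log2 fold changes without and with PGE2, which come from separate libraries, had a Pearson r of 0.975, a description across genes that share those libraries. With upper-quartile factors the median of all genes moved to −0.13 in both settings, and the median of the 38 genes with PGE2 to 0.86.

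**Figure D2:**
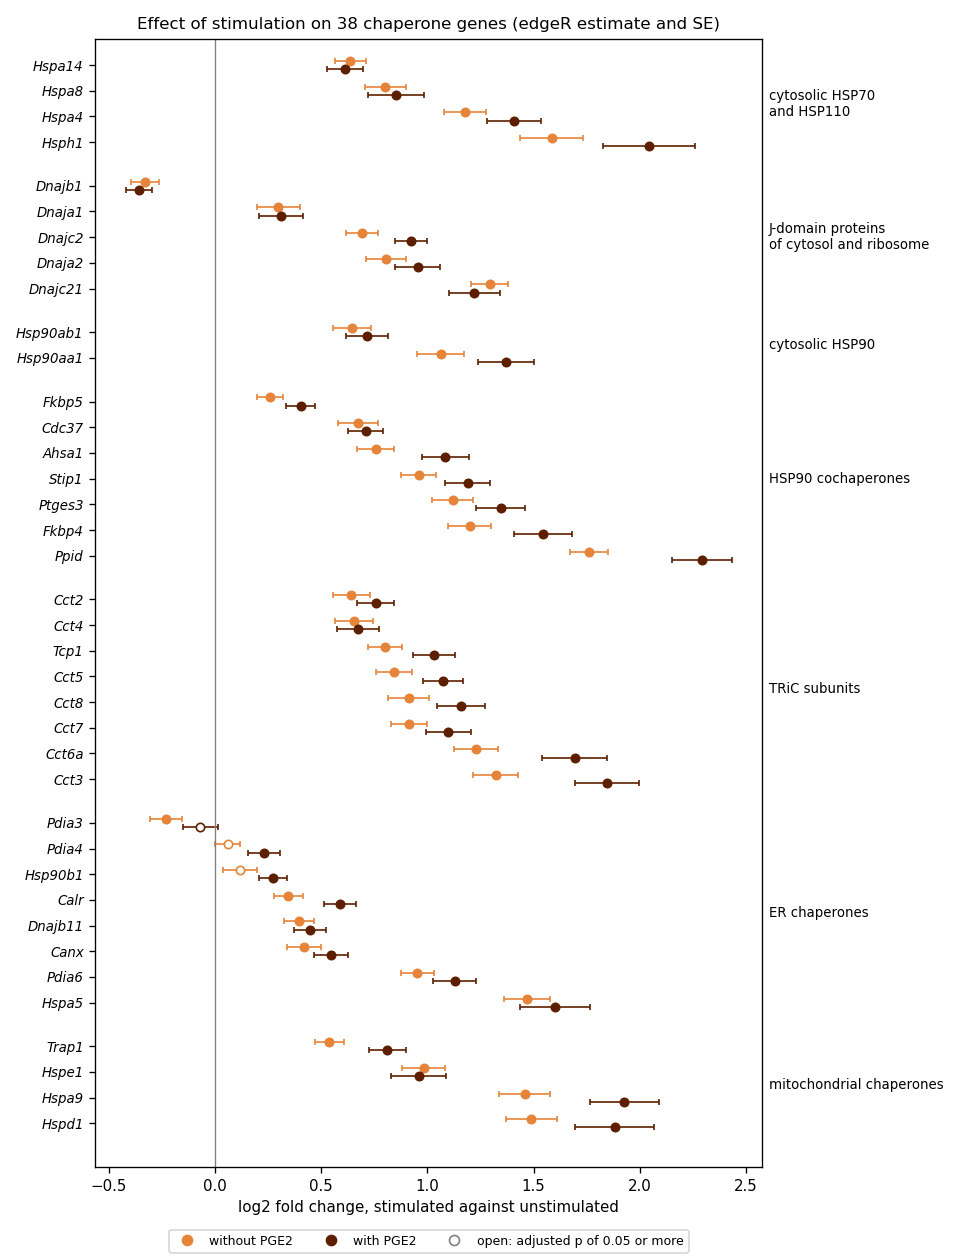
Log2 fold change on stimulation without and with PGE2 for each of the 38 genes, grouped by role; points are edgeR estimates, bars the SE, and open points had an adjusted p of 0.05 or more. Ppid lies farthest right at 1.76 and 2.29, and Dnajb1 lies left of 0 in both.

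PGE2 lowered the set in unstimulated cells. There 30 of 38 genes fell and 0 rose (edgeR, 14505 genes tested), where 15.5% of all genes fell and 12.9% rose, and 36 of 38 estimates were below 0. An unadjusted p below 0.05 was found for 33 genes, all of them lower, beside 5640 of all 14505 genes in either direction. DESeq2 called 31 of the 38 lower and 0 higher, beside 2289 lower of 26421 genes. These are all genes with any count, a wider set than the 14505 of edgeR, so the shares are not alike. The median log2 fold change was −0.39, beside 0.00 over all genes. By edgeR as by DESeq2, 0 genes reached a 2-fold fall, which 1.92% of all genes did. In 29 genes the treated replicates did not overlap with the untreated ones, beside 28.9% of all genes in either direction. Not past the threshold were *Hspa14*, *Dnaja1*, *Dnajb1*, *Dnajc21*, *Hsp90ab1*, *Pdia3*, *Hsp90b1* and *Hspe1*. Replicates with equal numbers deviated together from their group means, and with the number as a block in the fit 36 of 38 genes fell and *Dnajb1* and *Dnajc21* did not pass, beside 47.8% of all genes changed in either direction and 24.2% lower. The calls gained with the block were *Hspa14* −0.15 (adjusted p = 0.00338), *Dnaja1* −0.11 (adjusted p = 0.0242), *Hsp90ab1* −0.16 (adjusted p = 0.00461), *Pdia3* −0.22 (adjusted p = 0.000164), *Hsp90b1* −0.12 (adjusted p = 0.0183) and *Hspe1* −0.31 (adjusted p = 0.00034) on the log2 scale.

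**Figure D3:**
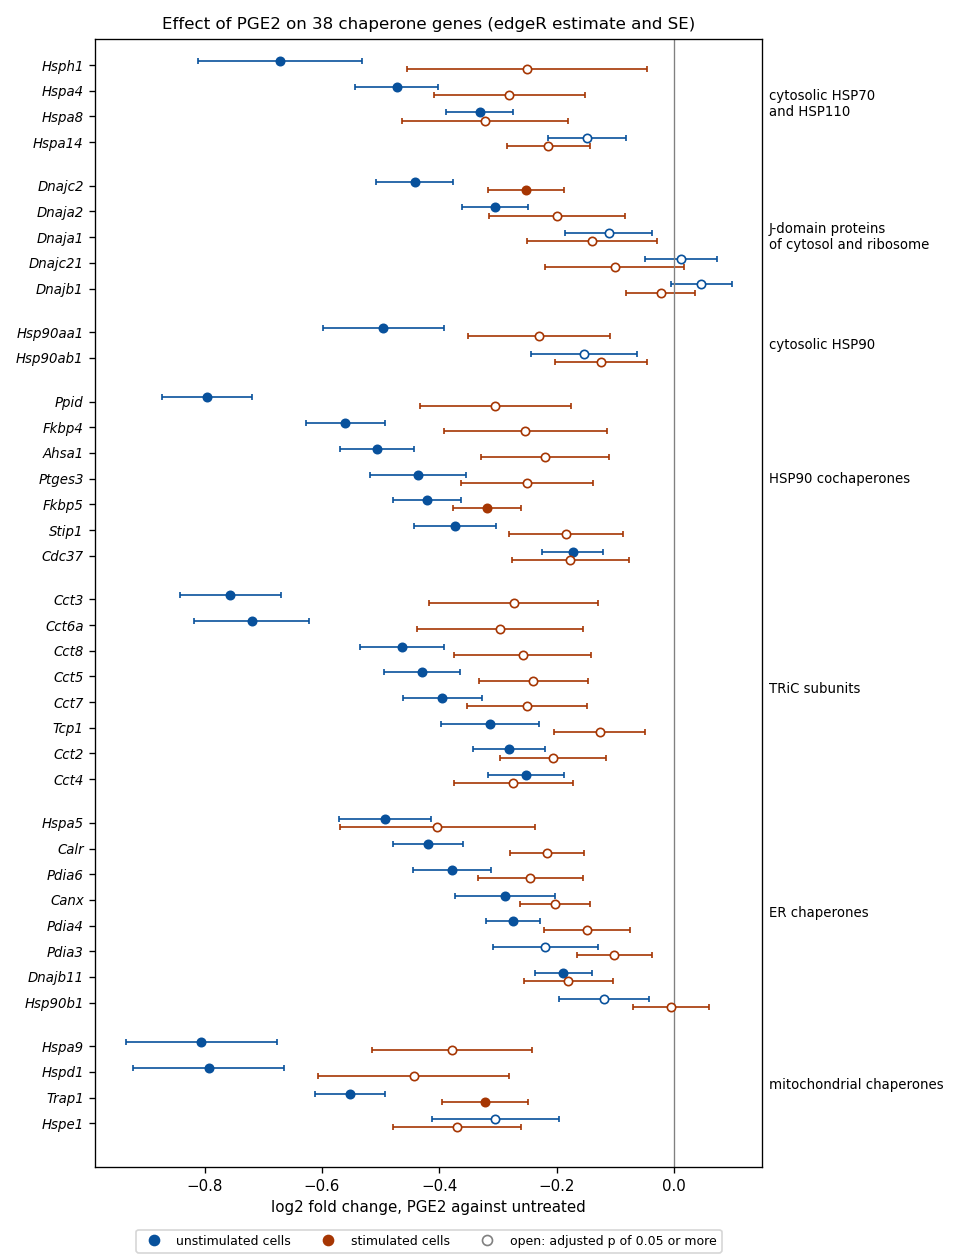
Log2 fold change with PGE2 in unstimulated and in stimulated cells for the 38 genes, grouped by role; points are edgeR estimates without a replicate block, bars the SE, and open points had an adjusted p of 0.05 or more. The lowest points are those of Hspa9 at −0.81, Ppid at −0.80 and Hspd1 at −0.79 in unstimulated cells, and all 38 points of stimulated cells lie below 0.

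In stimulated cells fewer genes passed. All 38 estimates were below 0, with a median of −0.24 beside −0.01 over all genes, but of these *Fkbp5*, *Trap1* and *Dnajc2* fell past the threshold without a block (edgeR, 13922 genes tested), where 3.8% of all genes fell, 6.04% rose and 9.84% changed in either direction. The 3 of 38 lie near that background. At an unadjusted p below 0.05 there were 19 of 38 genes, beside 3761 of all 13922. In 7 genes the groups did not overlap, beside 17.9% of all genes. The calls of *Trap1* and *Dnajc2* were not stable when 1 library was left out. Over all genes, 1370 passed with all 8 libraries and 630 to 1854 with 1 left out. *Fkbp5* stayed past the threshold whichever replicate was left out. *Trap1* did not without stimulated untreated replicates 1, 2 or 3 or without PGE2-treated replicates 3 or 4 (adjusted p 0.0543 to 0.0844), and *Dnajc2* did not without any 1 of the 8 (0.0526 to 0.127). The number of genes past the threshold was 1 without each of those 5 libraries and 6 without PGE2-treated replicate 1.

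Equal replicate numbers deviated together in this comparison too (r of 0.190 to 0.423), but some unlike numbers did as well, with r up to 0.250. With the number as a block 33 of 38 genes fell and 0 rose (edgeR with the block), against 20.7% of all genes lower and 39.8% in either direction. All 8 TRiC subunits, all 7 HSP90 cochaperones, all 4 mitochondrial chaperones, all 4 HSP70 and HSP110 proteins and both cytosolic HSP90 genes were among them. Not past the threshold with the block were *Dnajb1*, *Dnajc21*, *Hsp90b1*, *Pdia3* and *Pdia4*. The largest falls with the block were *Hspd1* −0.47 (adjusted p = 0.000507), *Hspa5* −0.43 (adjusted p = 0.000855), *Hspa9* −0.39 (adjusted p = 0.000355), *Hspe1* −0.37 (adjusted p = 7.93e-05) and *Hspa8* −0.34 (adjusted p = 0.00119) on the log2 scale. Pair by pair, the PGE2-treated replicate was lower than the untreated replicate of the same number in all 38 genes for number 1, in 36 for number 2 and in 37 for numbers 3 and 4. In 35 of 38 genes it was lower in all 4 pairs, which held for 29% of all genes. The median difference was −0.23, −0.15, −0.27 and −0.32 on the log2 scale in pairs 1 to 4, and −0.03 to −0.00 over all genes. In unstimulated cells 36 of 38 genes were lower in all 4 pairs, beside 30.6% of all genes, and the median differences were −0.44, −0.45, −0.39 and −0.34.

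**Figure D4:**
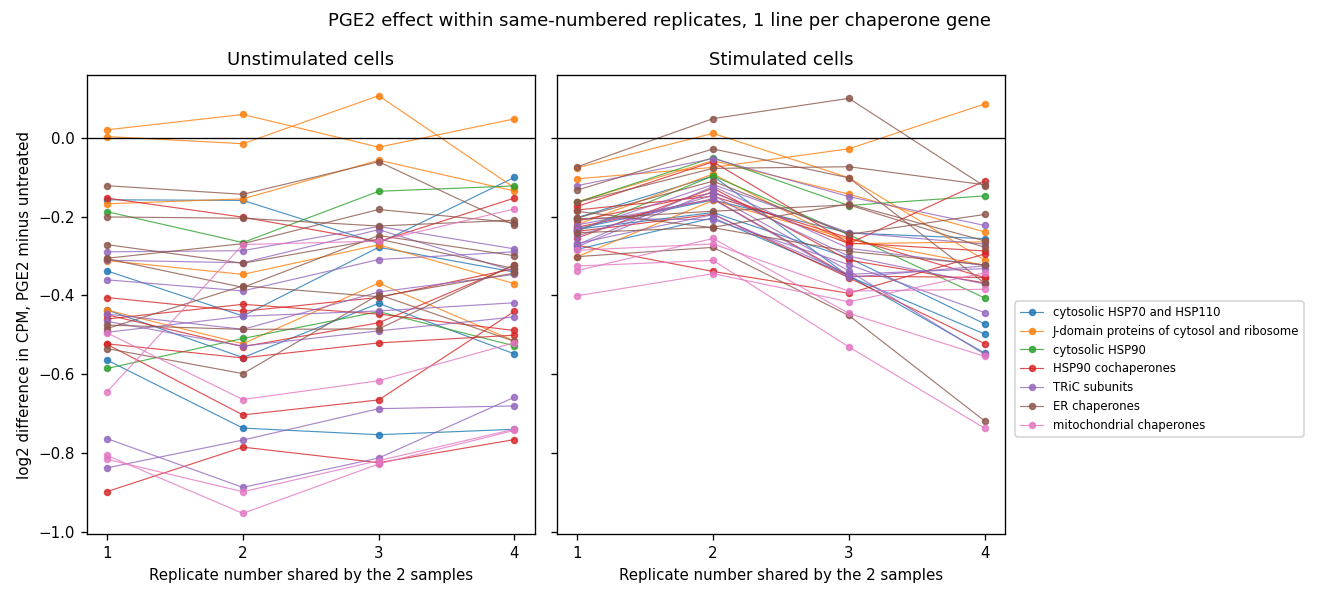
Log2 difference in CPM between the PGE2-treated and the untreated replicate of the same number, 1 line per gene coloured by role, in unstimulated (left) and stimulated cells (right). Nearly all lines stay below 0, and the mitochondrial genes Hspa9 and Hspd1 are among the lowest in both panels.

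The difference between the PGE2 effects in stimulated and unstimulated cells was tested over all 16 libraries, and 0 of 38 genes passed (edgeR, 15096 genes tested, of which 0.749% passed). DESeq2 called 0 as well, and 8 of the 38 had an unadjusted p below 0.05, beside 1415 of all 15096. The interaction estimate was above 0, a smaller fall in stimulated cells, in 32 of 38 genes, beside 9268 of all 15096 genes. Its median was 0.15 over the 38 genes and 0.05 over all genes. The largest estimates were those of *Ppid* (log2 change 0.50, SE 0.159, adjusted p = 0.21) and *Cct3* (log2 change 0.50, SE 0.181, adjusted p = 0.328). Without stimulated PGE2-treated replicate 4, *Ppid* passed (interaction 0.59, SE 0.134, adjusted p = 0.0326). The log2 fold changes with PGE2 in stimulated and unstimulated cells had a Pearson r of 0.747 over the 38 genes, again a description across genes. Regardless of sign, the change was the larger one in unstimulated cells for 32 of them.

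Among the cytosolic HSP70 and HSP110 proteins, *Hspa8* encodes the constitutive HSP70 and was the second most abundant gene of the set. *Hspa8* stood at 2458, 2523, 2407 and 2463 CPM in the unstimulated untreated replicates and at 1945, 1844, 1985 and 1945 CPM in the unstimulated replicates with PGE2. After stimulation the values were 4935, 4575, 3969 and 3824 CPM without PGE2 and 4056, 3974, 3114 and 2618 CPM with PGE2. Untreated and PGE2-treated replicates were separated in unstimulated cells (log2 change −0.33, SE 0.0570, adjusted p = 0.00125) and overlapped in stimulated cells (log2 change −0.32, SE 0.142, adjusted p = 0.178; with the block −0.34, adjusted p = 0.00119). Stimulation raised it without PGE2 (log2 change 0.80, SE 0.0964, adjusted p = 1.02e-05) and with PGE2 (log2 change 0.85, SE 0.134, adjusted p = 0.000217). *Hsph1* encodes HSP110, a nucleotide exchange factor of HSP70, and had one of the largest rises. *Hsph1* stood at 106, 94.8, 72.3 and 84.8 CPM in the unstimulated untreated replicates and at 71.7, 56.9, 42.9 and 50.8 CPM in the unstimulated replicates with PGE2. With beads, replicates 1 to 4 reached 334, 293, 229 and 223 CPM when untreated and 290.0, 274, 179.6 and 158 CPM when PGE2 was given. All 8 stimulated replicates exceeded all 8 unstimulated ones, although the stimulated PGE2-treated replicates differed among themselves by more than 1.5-fold. Its rise was 1.58 (SE 0.147) without and 2.04 (SE 0.217) with PGE2 on the log2 scale, and PGE2 lowered it in unstimulated cells (log2 change −0.67, SE 0.140, adjusted p = 0.00414). *Hspa4*, another exchange factor of this family, rose by 1.17 (SE 0.0991) and 1.41 (SE 0.127) and fell with PGE2 in unstimulated cells (log2 change −0.47, SE 0.0705, adjusted p = 0.000501). *Hspa14*, an HSP70 of the ribosome, rose by 0.64 (SE 0.0733) and 0.61 (SE 0.0838).

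The J-domain proteins, which hand clients to HSP70 and start its ATP cycle, did not move as 1 group. *Dnaja2*, the most abundant per length, followed *Hspa8*. *Dnaja2* stood at 219.9, 207, 195 and 222 CPM in the unstimulated untreated replicates and at 177, 163, 161 and 172 CPM in the unstimulated replicates with PGE2. Stimulated untreated cells had 434, 374, 350.0 and 329 CPM and stimulated PGE2-treated cells 373, 351, 290.5 and 274 CPM. It rose on stimulation without PGE2 (log2 change 0.81, SE 0.0952, adjusted p = 8.66e-06) and with it (log2 change 0.95, SE 0.106, adjusted p = 2.03e-05), and fell with PGE2 in unstimulated cells (log2 change −0.31, SE 0.0563, adjusted p = 0.00195). *Dnajb1*, the J-domain protein best known from the heat shock response, went the other way. *Dnajb1* stood at 104, 98.8, 96.9 and 92.9 CPM in the unstimulated untreated replicates and at 105, 103, 95.4 and 96.1 CPM in the unstimulated replicates with PGE2. The stimulated replicates had 82.6, 77.2, 77.6 and 77.4 CPM without PGE2 and 76.9, 73.3, 76.1 and 82.1 CPM with it. Every stimulated replicate lay below every unstimulated one, without PGE2 (log2 change −0.33, SE 0.0647, adjusted p = 0.0006) and with PGE2 (log2 change −0.36, SE 0.0626, adjusted p = 0.000464), and the PGE2 groups overlapped in both states. *Dnajc2*, which joins *Hspa14* on the ribosome, was 1 of the 3 genes that passed for PGE2 in stimulated cells. *Dnajc2* stood at 134, 145, 133 and 154 CPM in the unstimulated untreated replicates and at 98.6, 101, 103 and 108 CPM in the unstimulated replicates with PGE2. After stimulation the values were 245, 228, 226 and 223 CPM without PGE2 and 199, 204, 189 and 178 CPM with PGE2. All 4 groups were separated from each other in the order of the set. PGE2 lowered it in stimulated (log2 change −0.25, SE 0.0654, adjusted p = 0.0385) and in unstimulated cells (log2 change −0.44, SE 0.0656, adjusted p = 0.000483), and stimulation raised it (0.69, SE 0.0745, without and 0.92, SE 0.0746, with PGE2). *Dnajc21*, a factor of ribosome maturation, rose by 1.29 (SE 0.0876) without and 1.22 (SE 0.119) with PGE2, and its estimate for PGE2 was 0.01 (SE 0.0614) in unstimulated cells. *Dnaja1* rose by 0.30 (SE 0.101) without PGE2 and 0.31 (SE 0.104) with it. These calls of *Dnaja1* were lost without unstimulated untreated replicate 3 (adjusted p = 0.0667) or stimulated untreated replicate 1 (0.0527) in the first case, and without unstimulated PGE2-treated replicate 3 (0.108) or stimulated PGE2-treated replicates 1 (0.0572) or 2 (0.102) in the second. With upper-quartile factors they had adjusted p = 0.0505 and 0.0811.

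Of the cytosolic HSP90 genes, *Hsp90ab1* encodes the constitutive and *Hsp90aa1* the inducible form. *Hsp90ab1* stood at 2327, 2411, 2321 and 2748 CPM in the unstimulated untreated replicates and at 2044, 2005, 2113 and 2525 CPM in the unstimulated replicates with PGE2. With beads, replicates 1 to 4 reached 4246, 3901, 3641 and 3689 CPM when untreated and 3792, 3768, 3232 and 3330.4 CPM when PGE2 was given. Replicate 4 was the highest of its group in both unstimulated groups, and treated and untreated replicates overlapped in both states. Stimulation raised *Hsp90ab1* (log2 change 0.65, SE 0.0887, adjusted p = 3.24e-05 without PGE2 and 0.72, SE 0.0972, with it). *Hsp90aa1* rose further, from 609.8 ± 76.0 to 1284 ± 146 CPM (SD, n = 4) without PGE2 (log2 change 1.06, SE 0.109, adjusted p = 2.59e-06) and from 426 ± 49.6 to 1088 ± 179 CPM with PGE2 (log2 change 1.37, SE 0.132, adjusted p = 7.84e-06). It fell with PGE2 in unstimulated cells (log2 change −0.50, SE 0.103, adjusted p = 0.00421).

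All 7 HSP90 cochaperones rose on stimulation in both settings and all 7 fell with PGE2 in unstimulated cells. Of all genes, 31.7% rose without and 32.5% with PGE2, and 15.5% fell with PGE2 in unstimulated cells. *Ppid*, the cyclophilin of HSP90 complexes, had the largest rise of the set. *Ppid* stood at 106, 107, 97.7 and 115 CPM in the unstimulated untreated replicates and at 56.9, 62.2, 55.1 and 67.7 CPM in the unstimulated replicates with PGE2. Stimulated untreated cells had 401, 384, 344 and 326 CPM and stimulated PGE2-treated cells 340.1, 335, 269 and 227 CPM. The 4 unstimulated PGE2-treated replicates were the lowest and the unstimulated groups did not overlap. The rise was 1.76 (SE 0.0898, adjusted p = 1.67e-08) without and 2.29 (SE 0.141, adjusted p = 1.19e-06) with PGE2 on the log2 scale, and the fall with PGE2 was −0.80 (SE 0.0767, adjusted p = 2.98e-05) in unstimulated cells. *Stip1*, which bridges HSP70 and HSP90, was the most abundant cochaperone per length. *Stip1* stood at 210.3, 209.8, 193 and 223 CPM in the unstimulated untreated replicates and at 159, 155, 146 and 177 CPM in the unstimulated replicates with PGE2. The stimulated replicates had 456, 406, 394 and 381 CPM without PGE2 and 404, 389.7, 328 and 312 CPM with it. It rose without PGE2 (log2 change 0.96, SE 0.0815, adjusted p = 5.11e-07) and with it (log2 change 1.19, SE 0.106, adjusted p = 4.74e-06), without overlap in either case, and fell with PGE2 in unstimulated cells (log2 change −0.37, SE 0.0696, adjusted p = 0.00209).

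*Fkbp5*, a peptidyl-prolyl isomerase of HSP90 complexes that glucocorticoids induce, had the smallest rise of the cochaperones and the fall with PGE2 in stimulated cells that no left-out library ended. *Fkbp5* stood at 136, 141, 137 and 139 CPM in the unstimulated untreated replicates and at 99.8, 97.7, 98.8 and 111 CPM in the unstimulated replicates with PGE2. After stimulation the values were 165, 173, 168 and 163 CPM without PGE2 and 137, 137, 128 and 133 CPM with PGE2. The stimulated PGE2-treated replicates lay below every stimulated untreated replicate and overlapped with the unstimulated untreated ones. PGE2 lowered it in stimulated (log2 change −0.32, SE 0.0575, adjusted p = 0.00809) and in unstimulated cells (log2 change −0.42, SE 0.0581, adjusted p = 0.00031), and stimulation raised it (log2 change 0.26, SE 0.0610, adjusted p = 0.00233 without PGE2; 0.40, SE 0.0705, with it). *Cdc37*, which brings kinases to HSP90, had the smallest called fall with PGE2 in unstimulated cells. *Cdc37* stood at 274, 273, 279 and 255 CPM in the unstimulated untreated replicates and at 247, 237, 233 and 229 CPM in the unstimulated replicates with PGE2. With beads, replicates 1 to 4 reached 496, 436, 434 and 369 CPM when untreated and 428, 396, 361 and 342 CPM when PGE2 was given. The unstimulated groups did not overlap (log2 change −0.17, SE 0.0526, adjusted p = 0.0292), but the call was lost without unstimulated untreated replicates 1, 2 or 3 or PGE2-treated replicates 2, 3 or 4 (adjusted p 0.0565 to 0.132), while the block gave an adjusted p of 0.000716. Its rise on stimulation was 0.67 (SE 0.0943) without and 0.71 (SE 0.0846) with PGE2. *Fkbp4*, *Ahsa1*, the activator of the HSP90 ATPase, and *Ptges3*, which encodes p23 and has also been described as a prostaglandin E synthase, made up the rest. On stimulation without PGE2 the log2 rises were *Fkbp4* 1.20 (SE 0.10), *Ahsa1* 0.76 (SE 0.0862) and *Ptges3* 1.12 (SE 0.0981), and with PGE2 *Fkbp4* 1.55 (SE 0.137), *Ahsa1* 1.08 (SE 0.110) and *Ptges3* 1.34 (SE 0.116). With PGE2 in unstimulated cells the log2 fold changes were *Fkbp4* −0.56 (SE 0.0669), *Ahsa1* −0.51 (SE 0.0637) and *Ptges3* −0.44 (SE 0.0815). Reads of *Ptges3* could also have gone to the pseudogene *Ptges3-ps*, which had a mean of 37.7 CPM.

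The 8 TRiC subunits rose on stimulation in both settings and fell with PGE2 in unstimulated cells, and in each of the 8 the groups compared did not overlap. Of all genes, 31.7% rose on stimulation without and 32.5% with PGE2, and 15.5% fell with PGE2 in unstimulated cells. Groups without overlap were found for 61.6%, 60.2% and 28.9% of all genes in the same order of comparisons, in either direction. *Cct2* was the most abundant per length over all libraries. *Cct2* stood at 459.8, 424, 394 and 454 CPM in the unstimulated untreated replicates and at 371, 340.2, 335 and 359 CPM in the unstimulated replicates with PGE2. Stimulated untreated cells had 763, 685, 626 and 648 CPM and stimulated PGE2-treated cells 648, 631, 529.9 and 537 CPM. Untreated and PGE2-treated replicates overlapped in stimulated cells. *Cct2* rose without PGE2 (log2 change 0.64, SE 0.0864, adjusted p = 2.77e-05) and with it (log2 change 0.76, SE 0.0877, adjusted p = 2.64e-05), and fell with PGE2 in unstimulated cells (log2 change −0.28, SE 0.0614, adjusted p = 0.00547). *Cct4* had the smallest called fall of the subunits. *Cct4* stood at 328, 299, 275 and 318 CPM in the unstimulated untreated replicates and at 269, 245, 236 and 261 CPM in the unstimulated replicates with PGE2. The stimulated replicates had 549.7, 487, 447 and 454 CPM without PGE2 and 456, 425, 351 and 360.4 CPM with it. The fall was −0.25 (SE 0.0644, adjusted p = 0.0129), with an adjusted p of 0.0682 without unstimulated PGE2-treated replicate 2. That library also decided *Tcp1* (log2 change −0.31, SE 0.0832, adjusted p = 0.0155, and 0.0640 without it). The other log2 fold changes with PGE2 in unstimulated cells were *Cct3* −0.76 (SE 0.0858), *Cct6a* −0.72 (SE 0.0979), *Cct8* −0.46 (SE 0.0710), *Cct5* −0.43 (SE 0.0645) and *Cct7* −0.40 (SE 0.0674). On stimulation without PGE2 they were *Cct3* 1.32 (SE 0.105), *Cct6a* 1.23 (SE 0.104), *Cct7* 0.91 (SE 0.0847), *Cct8* 0.91 (SE 0.0970), *Cct5* 0.84 (SE 0.0846), *Tcp1* 0.80 (SE 0.0802) and *Cct4* 0.66 (SE 0.0895). With PGE2 they were *Cct3* 1.85 (SE 0.150), *Cct6a* 1.69 (SE 0.153), *Cct8* 1.16 (SE 0.115), *Cct7* 1.10 (SE 0.108), *Cct5* 1.07 (SE 0.0953), *Tcp1* 1.03 (SE 0.0988) and *Cct4* 0.67 (SE 0.0985). *Cct3* and *Cct6a* thus moved most in all 3 comparisons, and *Cct2* and *Cct4* least.

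Each ring of TRiC is built from all of the subunits together, and the balance of the 8 transcripts was also described per length. In unstimulated untreated cells they ranged from 36.6 ± 2.80 FPKM for *Cct3* to 161 ± 11.7 FPKM for *Cct2*, and with PGE2 from 21.6 ± 2.46 to 132 ± 5.95 FPKM. In stimulated untreated cells the range was 88.4 ± 6.98 FPKM for *Tcp1* to 263 ± 29.4 FPKM for *Cct5*, and with PGE2 75.1 ± 10.9 FPKM for *Cct7* to 221 ± 26.3 FPKM for *Cct5*. The ratio of the highest to the lowest subunit within a library was 4.70, 4.16, 4.47 and 4.32 in unstimulated untreated replicates and 6.43, 6.18, 6.68 and 5.39 in unstimulated PGE2-treated replicates. It was 3.11, 2.93, 3.00 and 3.03 in stimulated untreated and 2.83, 2.96, 3.09 and 3.37 in stimulated PGE2-treated replicates. The transcripts were therefore least even in unstimulated cells with PGE2, in every replicate, and the stimulated groups overlapped. Summed over the subunits, the level was 668 ± 42.2, 504 ± 27.5, 1226 ± 146 and 1031 ± 147 FPKM (SD, n = 4) in the same order of groups. This ratio was chosen after the values were seen and is given without a test.

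**Figure D5:**
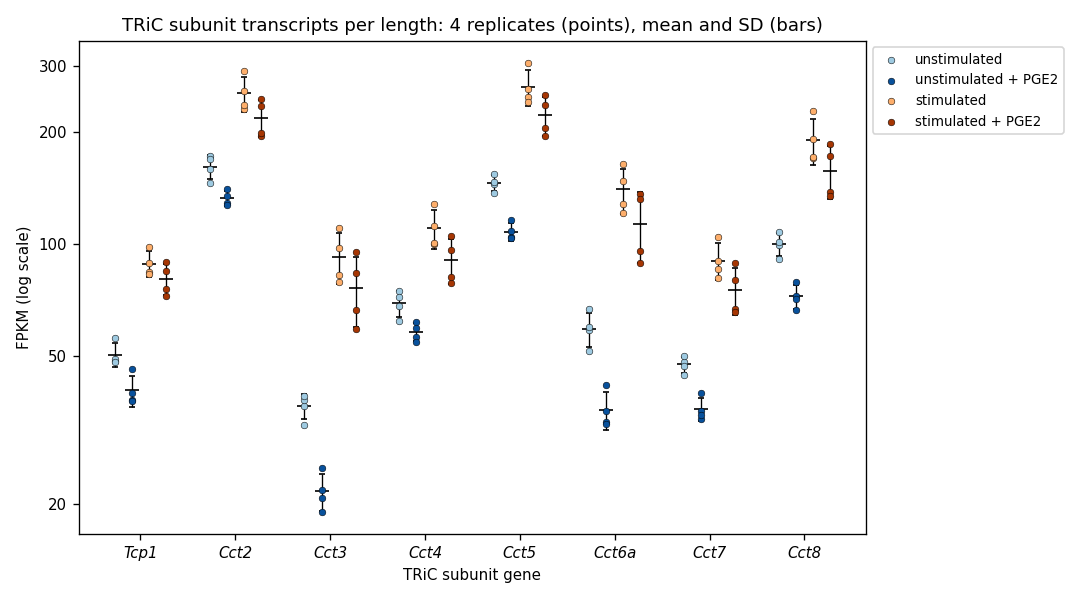
FPKM (log axis) of the 8 TRiC subunit genes in the 4 groups; points are replicates, the wide bar is the mean and the error bar the SD. Cct2 and Cct5 are the highest in all groups, and Cct3 falls farthest below the others in unstimulated cells with PGE2, at 21.6 FPKM.

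The ER chaperones had the smallest median rise of the 7 roles. On stimulation without PGE2, 5 of 8 rose and 1 fell, beside 31.7% and 34.8% of all genes. The median log2 fold change was 0.37, beside −0.03 over all genes. With PGE2, 7 rose, beside 32.5% of all genes, with a median of 0.50 beside 0.00. *Calr*, which encodes the lectin calreticulin, was the most abundant per length. *Calr* stood at 472, 478, 469 and 477 CPM in the unstimulated untreated replicates and at 339.8, 341, 335 and 382 CPM in the unstimulated replicates with PGE2. After stimulation the values were 634, 614, 605 and 577 CPM without PGE2 and 536, 525, 539 and 482 CPM with PGE2. All 4 groups were separated. PGE2 lowered *Calr* in unstimulated cells (log2 change −0.42, SE 0.0601, adjusted p = 0.000389) and, in stimulated cells, past the threshold only with the block (without it log2 change −0.22, SE 0.0635, adjusted p = 0.0592; with it −0.22, adjusted p = 0.00214). It rose on stimulation without PGE2 (log2 change 0.35, SE 0.0677, adjusted p = 0.000591) and with it (log2 change 0.59, SE 0.0750, adjusted p = 5.09e-05). *Hspa5* encodes BiP, the HSP70 of the ER, and had by far the largest rise of this group, from 371 ± 33.3 to 1035 ± 139.6 CPM (SD, n = 4) without PGE2 (log2 change 1.47, SE 0.109, adjusted p = 1.65e-07) and from 259.6 ± 19.7 to 778 ± 193 CPM with PGE2 (log2 change 1.60, SE 0.165, adjusted p = 1.19e-05). It fell with PGE2 in unstimulated cells (log2 change −0.49, SE 0.0780, adjusted p = 0.000743).

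*Hsp90b1*, the HSP90 of the ER (GRP94), changed little. *Hsp90b1* stood at 326, 324, 302 and 381 CPM in the unstimulated untreated replicates and at 300.03, 293, 289.7 and 327 CPM in the unstimulated replicates with PGE2. With beads, replicates 1 to 4 reached 365, 349, 354 and 394 CPM when untreated and 347, 361, 380.0 and 362 CPM when PGE2 was given. Without PGE2 the groups overlapped (log2 change 0.12, SE 0.0800, adjusted p = 0.209), and with PGE2 they did not (log2 change 0.27, SE 0.0662, adjusted p = 0.00378; adjusted p = 0.0892 with upper-quartile factors). *Pdia3*, a disulfide isomerase that works with the lectin chaperones, fell on stimulation without PGE2, as did *Dnajb1*. *Pdia3* stood at 444, 498, 456 and 531 CPM in the unstimulated untreated replicates and at 359, 414, 402 and 457 CPM in the unstimulated replicates with PGE2. Stimulated untreated cells had 407, 402, 416 and 438 CPM and stimulated PGE2-treated cells 363, 381, 395 and 403 CPM. The fall without PGE2 was called (log2 change −0.23, SE 0.0746, adjusted p = 0.0157), and with PGE2 the groups overlapped (log2 change −0.07, SE 0.0837, adjusted p = 0.485). *Pdia4*, also a disulfide isomerase, had small differences too. *Pdia4* stood at 97.2, 99.3, 96.4 and 99.5 CPM in the unstimulated untreated replicates and at 80.5, 79.6, 80.7 and 79.0 CPM in the unstimulated replicates with PGE2. The stimulated replicates had 102, 98.5, 107 and 106 CPM without PGE2 and 92.6, 96.6, 99.9 and 82.3 CPM with it. The rise with PGE2 (log2 change 0.23, SE 0.0756, adjusted p = 0.0197) was lost without unstimulated PGE2-treated replicates 1, 2 or 3 or stimulated PGE2-treated replicates 2 or 3 (adjusted p 0.0532 to 0.110), with upper-quartile factors (0.216) and without the filter on low counts (0.131), whereas the fall with PGE2 in unstimulated cells kept its call under every alternative (log2 change −0.27, SE 0.0468, adjusted p = 0.00118). *Dnajb11*, the J-domain partner of BiP, had a small called fall. *Dnajb11* stood at 116, 111, 106 and 112 CPM in the unstimulated untreated replicates and at 101, 96.4, 90.7 and 96.6 CPM in the unstimulated replicates with PGE2. After stimulation the values were 161, 147, 141 and 140.2 CPM without PGE2 and 140.0, 137, 119 and 123 CPM with PGE2. The fall in unstimulated cells (log2 change −0.19, SE 0.0487, adjusted p = 0.0133) was lost without untreated replicate 2 (adjusted p = 0.0695) or PGE2-treated replicate 2 (0.0638). *Canx*, which encodes the membrane lectin calnexin, and *Pdia6* complete the group. On stimulation without PGE2 the log2 fold changes were *Canx* 0.42 (SE 0.0794), *Pdia6* 0.95 (SE 0.0766) and *Dnajb11* 0.40 (SE 0.0716). With PGE2 they were *Canx* 0.55 (SE 0.0817), *Pdia6* 1.13 (SE 0.101) and *Dnajb11* 0.45 (SE 0.0768). PGE2 lowered *Canx* −0.29 (SE 0.0850) and *Pdia6* −0.38 (SE 0.0667) in unstimulated cells, and the call of *Canx* was lost without untreated replicates 2 or 4 or PGE2-treated replicates 1, 2 or 3 (adjusted p 0.0518 to 0.0991).

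Most promoters of the ER group held a match to the ER stress element. The ER stress element, searched as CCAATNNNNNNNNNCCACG on both strands, lay within 250 bases before to 50 after a start site in 5 of the 8 ER chaperones and in 0 of the 23 other members with a promoter in the RefSeq table (31 of 38 matched; build GRCm38.p6). Of all 27025 genes with a promoter there, 0.137% had a match. The matches are shown on the strand where the element reads in this direction, with its CCAAT-to-CCACG span in capitals. *Hsp90b1* held the element in both orientations.
Hspa5, chr2:34772020-34772049, plus strand: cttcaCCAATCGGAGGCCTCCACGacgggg
Calr, chr8:84847069-84847098, plus strand: tatgggCCAATGAGGGTCGACCACGcgttg
Canx, chr11:50325794-50325823, minus strand: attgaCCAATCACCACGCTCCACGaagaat
Pdia6, chr12:17266486-17266515, plus strand: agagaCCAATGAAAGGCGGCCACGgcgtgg
Hsp90b1, distal of the pair, chr10:86705632-86705661, minus strand: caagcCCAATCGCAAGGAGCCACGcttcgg
Hsp90b1, proximal of the pair, chr10:86705527-86705556, plus strand: aactcaCCAATCGTGCCTCACCACGcactc
Genes with the element did not move alike: on stimulation without PGE2 *Hspa5* rose by 1.47, *Pdia6* by 0.95, *Canx* by 0.42 and *Calr* by 0.35, and *Hsp90b1* with both copies had a log2 fold change of 0.12. A match is a description of letters and not of a bound site.

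The mitochondrial chaperones had the largest median fall of the 7 roles with PGE2 in unstimulated cells, at −0.67 on the log2 scale. *Hspa9*, the mitochondrial HSP70, had the largest fall of the set. *Hspa9* stood at 301, 330.0, 288 and 394 CPM in the unstimulated untreated replicates and at 172, 170.4, 162 and 235 CPM in the unstimulated replicates with PGE2. With beads, replicates 1 to 4 reached 1068, 918, 809 and 841 CPM when untreated and 845, 769, 594 and 572 CPM when PGE2 was given. In unstimulated cells the treated replicates lay below all untreated ones (log2 change −0.81, SE 0.129, adjusted p = 0.000786), and in stimulated cells the groups overlapped (log2 change −0.38, SE 0.136, adjusted p = 0.107; with the block −0.39, adjusted p = 0.000355). It rose on stimulation without PGE2 (log2 change 1.46, SE 0.119, adjusted p = 3.57e-07) and with it (log2 change 1.93, SE 0.163, adjusted p = 3.64e-06). *Hspd1* encodes HSP60, which forms the folding chamber of the matrix, and *Hspe1* its lid HSP10. *Hspd1* stood at 334, 354, 287 and 411 CPM in the unstimulated untreated replicates and at 189.8, 190.0, 163 and 246 CPM in the unstimulated replicates with PGE2. Stimulated untreated cells had 1125, 1038, 841 and 917 CPM and stimulated PGE2-treated cells 898, 837, 582 and 550.3 CPM. In stimulated cells PGE2-treated replicate 1 lay within the range of the untreated replicates and the other 3 below it. *Hspd1* fell with PGE2 in unstimulated cells (log2 change −0.79, SE 0.129, adjusted p = 0.00089) and rose on stimulation (log2 change 1.49, SE 0.122, adjusted p = 3.7e-07 without PGE2; log2 change 1.88, SE 0.185, adjusted p = 8.65e-06 with it). *Hspe1* rose by 0.98 (SE 0.101) without and 0.96 (SE 0.131) with PGE2, from 172 ± 10.8 to 342 ± 44.5 and from 137 ± 21.3 to 263 ± 31.2 CPM (SD, n = 4), less than its partner on the log2 scale. Reads of *Hspd1* could also have gone to the pseudogene *Hspd1-ps3*, which had a mean of 12.9 CPM.

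*Trap1* encodes the HSP90 of mitochondria. *Trap1* stood at 119, 121, 113 and 124 CPM in the unstimulated untreated replicates and at 84.6, 76.1, 73.9 and 86.5 CPM in the unstimulated replicates with PGE2. The stimulated replicates had 179.8, 181, 173 and 165 CPM without PGE2 and 148, 151, 132 and 126 CPM with it. All 4 groups were separated. PGE2 lowered it in stimulated (log2 change −0.32, SE 0.0737, adjusted p = 0.024) and in unstimulated cells (log2 change −0.55, SE 0.0600, adjusted p = 6.34e-05), and stimulation raised it without PGE2 (log2 change 0.54, SE 0.0668, adjusted p = 1.34e-05) and with it (log2 change 0.81, SE 0.0862, adjusted p = 1.46e-05).

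*Hspd1* and *Hspe1* lie head to head on chromosome 1 on opposite strands, and their annotated ends overlap by 112 bases (GRCm38, 55088132 to 55088243). The use of strand in the counting is not stated, so reads in those bases cannot be assigned. Between the RefSeq start sites of the promoter windows, which differ from these annotated gene ends, lies a run of overlapping heat shock elements, searched as GAANNTTC or TTCNNGAA, forms that overlap in longer runs and are each their own reverse complement. The same 18 bases, in capitals, are read from either gene.
Hspd1, chr1:55088053-55088082, minus strand: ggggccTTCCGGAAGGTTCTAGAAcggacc
Hspe1, chr1:55088053-55088082, plus strand: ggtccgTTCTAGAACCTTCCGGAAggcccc
Hsph1, chr5:149636351-149636380, minus strand: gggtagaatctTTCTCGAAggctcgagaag
Fkbp4, chr6:128438789-128438818, minus strand: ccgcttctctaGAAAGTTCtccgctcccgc
Such an element was found in the promoter of 9 of 31 members (29%), among them *Hsph1* and *Fkbp4* above and *Dnaja1*, *Cdc37*, *Cct2*, *Cct5* and *Cct6a*, and in 17% of all 27025 genes. None of the 8 ER chaperones and not *Dnajb1* had one in this window. On stimulation without PGE2 the 9 genes had log2 fold changes from 0.30 for *Dnaja1* to 1.58 for *Hsph1*.

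Other genes of the folding pathways, from lists written for this work, moved less uniformly. Their counts are to be read beside those of all genes. On stimulation 31.7% rose and 34.8% fell without PGE2, and 32.5% and 31.7% with it. With PGE2 in unstimulated cells 12.9% rose and 15.5% fell. Of 28 further cytosolic heat shock proteins and cochaperones that were tested, 14 rose and 7 fell on stimulation without PGE2, with a median log2 fold change of 0.19. With PGE2 12 rose and 7 fell (median 0.24). The exchange factor gene *Bag5* rose most, by 1.51 (SE 0.154) without and 1.66 (SE 0.193) with PGE2. Among those that fell most were *Hspb6*, by −1.43 (SE 0.203) and −1.31 (SE 0.206), and, without PGE2, *Hspa1b*, by −0.76 (SE 0.259). *Hspa1b* and, with PGE2, *Hspa1a* (−1.51 (SE 0.326)) encode the heat-inducible HSP70, and the pair had no more than 20.7 CPM in the mean of any group. As near-identical copies they share reads, so their counts are uncertain. In unstimulated cells with PGE2 8 of these genes rose and 7 fell (median 0.01), in the comparison where 30 of the 38 genes fell. In the test of the difference between the PGE2 effects in stimulated and unstimulated cells 0.749% of all genes passed. *Dnajb2* was the only gene of the 6 lists past the threshold there (−0.57 (SE 0.111), adjusted p = 0.0199).

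Of the factors that control chaperone genes, *Hsf1*, the master regulator of the heat shock response, rose on stimulation by 1.15 (SE 0.0883) without and 1.49 (SE 0.106) with PGE2 and fell with PGE2 in unstimulated cells by −0.48 (SE 0.0636). *Hsf2* rose by 1.58 (SE 0.155) and 2.08 (SE 0.155) and was higher with PGE2 in stimulated cells (0.63 (SE 0.133)). *Eif2ak3*, which encodes the ER stress sensor PERK, moved against the set, down by −1.91 (SE 0.108) and −1.80 (SE 0.132) on stimulation and up by 0.82 (SE 0.0555) and 0.88 (SE 0.177) with PGE2 in unstimulated and stimulated cells. In all, 7 of 11 such genes tested rose and 2 fell on stimulation without PGE2, beside 31.7% and 34.8% of all genes. The wider unfolded protein response and ER folding list was split in that comparison, with 12 of 25 up and 8 down, not far from those shares. Its largest rises were *Fkbp11* (2.27 (SE 0.318)), *Pdia5* (1.34 (SE 0.230)) and the BiP exchange factor *Hyou1* (1.28 (SE 0.0905)), and its largest falls *Ero1lb* (−0.67 (SE 0.0990)), *Dnajc3* (−0.57 (SE 0.0638)) and *Ddit3* (−0.42 (SE 0.126)). With PGE2 in unstimulated cells 4 of the 25 rose and 6 fell, beside 12.9% and 15.5% of all genes. They were led by *Sdf2l1* (−0.67 (SE 0.0880)) and *Txndc5* (−0.52 (SE 0.0659)) downwards and *Edem1* (0.66 (SE 0.0663)) upwards. Mitochondrial folding and proteolysis genes followed the set more closely. On stimulation 10 of 12 rose in both settings, beside 31.7% of all genes without and 32.5% with PGE2. The protease subunit *Clpp* led them (1.36 (SE 0.114) and 1.64 (SE 0.136)). With PGE2 in unstimulated cells 5 of the 12 fell and 1 rose, beside 15.5% and 12.9% of all genes.

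Prefoldin passes actin and tubulin chains to TRiC. Of 10 prefoldin and TRiC cofactor genes 4 rose and 3 fell on stimulation without PGE2, near the 31.7% and 34.8% of all genes. Among those that rose were *Pfdn2* (1.84 (SE 0.145)) and *Pfdn4* (1.27 (SE 0.144)). With PGE2 in unstimulated cells *Pfdn2* (−0.41 (SE 0.0665)), *Pfdn6* (−0.36 (SE 0.0548)) and *Pfdn1* (−0.30 (SE 0.0793)) fell, where 15.5% of all genes fell. The actin and tubulin genes themselves were split. On stimulation without PGE2, 3 of 12 rose and 6 fell, to be read beside the same shares of all genes. *Tubb5* (−0.85 (SE 0.0968)) and *Tubb2b* (−1.61 (SE 0.236)) were among those that fell, whereas *Tuba4a* rose (0.67 (SE 0.0798)). With PGE2, *Actg1* was higher in unstimulated (0.62 (SE 0.0763)) and in stimulated cells (0.35 (SE 0.0702)), *Tubb2a* and *Tubb2b* were higher in both, and *Tuba4a* was lower in both (−0.76 (SE 0.0566) and −0.44 (SE 0.103)). In stimulated cells 5 of the 12 rose and 1 fell with PGE2, without a block, beside 6.04% and 3.8% of all genes.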

How the data were processed

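The 16 libraries were poly(A)-selected, prepared with NEBNext Ultra and sequenced as paired ends on a NovaSeq. The authors aligned reads with HISAT2 2.0.5 to GRCm38 and deposited raw counts per gene from featureCounts 1.5.0-p3, which were used for every test. FPKM values, deposited by the authors in a separate table, were used to compare levels between genes. These versions are from the submitters' processing notes. The annotation release and the use of strand are not given in the sources used here, and exons of 15 of the 38 genes overlap with those of other genes, in 11 cases a gene above 1 CPM, so reads there are uncertain. Depth was 22678254 to 42950763 counts per library. The members and all gene lists were chosen with earlier results of these data known.

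Each pairwise comparison was fitted on its 8 samples with edgeR 4.0.16 (R 4.3.3; quasi-likelihood test, TMM factors, filterByExpr with a minimum count of 10), the interaction over all 16, with Benjamini-Hochberg adjustment over all genes tested and a threshold of 0.05. The p-values of single genes printed without a tool are from these fits. Fits were tested on simulated data with planted changes of at least 2-fold and no replicate effect, so smaller changes and pairing were not covered. Values in every sample are given for the gene of highest FPKM in each role and for the 3 highest and 3 lowest log2 fold changes among the called members of a comparison, and other genes are named by the same rule of 3 within their list. Alternatives were upper-quartile and RLE factors, no or a stricter filter, DESeq2 1.42.0, limma 3.58.1 on log2(FPKM + 1) and log2(FPKM + 0.1), a single fit of all samples, a replicate block and leaving out each replicate. Deviations of same-numbered replicates from their group means correlated with r of 0.190 to 0.423 for PGE2 in stimulated cells, 0.137 to 0.444 for PGE2 in unstimulated cells and 0.112 to 0.359 for stimulation without PGE2, each pair above 0.1. For stimulation with PGE2 r was 0.0439 to 0.281. Replicates of unlike number reached r of 0.250, 0.124, 0.125 and 0.157 in the same order of comparisons. The main fits held no replicate term. Pairing entered only through the replicate block and the differences pair by pair. Promoters are RefSeq windows of GRCm38.p6. Genes *Hspa8*, *Dnajc2*, *Hsp90aa1*, *Hsp90ab1*, *Ppid*, *Cct4* and *Hspa9* had no window in that table and were not searched.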

Additional observations from a re-analysis of the deposited data

Results flagged for a closer look

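In 6 of 152 groups of 4 replicates, 1 replicate stood apart from the other 3 by more than the critical value of Dixon's test allows for the range of its group, which chance passes in about 1 of 20 groups. In unstimulated PGE2-treated replicate 4 this was so for *Fkbp5* (111 CPM), *Calr* (382 CPM) and *Hspa9* (235 CPM), each the highest of its group. *Tcp1* was highest in unstimulated untreated replicate 4 (296 CPM). In stimulated untreated replicate 1 *Hspa14* (159.7 CPM) and *Dnajb1* (82.6 CPM) stood above the other replicates. All 6 were high values, and none was tested further.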

How the results depend on the processing

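Over the 106 pairs of gene and comparison that were called, 1851 of 1908 values under an alternative kept direction and call, 57 kept the direction but missed the threshold and 0 changed sign. For PGE2 in stimulated cells the number of the 38 genes past the threshold was 3, and it was 6 with DESeq2, 1 with limma on log2(FPKM + 1) without a filter, 8 with 1 fit of all 16 samples and 1 to 6 with a replicate left out. With the replicate block it was 33, and all 3 calls were kept. The calls of all genes moved too. In that comparison 9.84% of all genes passed in the main fit and 14.3% with 1 fit of all 16 samples. With a replicate left out 4.49% to 13.2% passed, and with the block 39.8%. For the interaction the number of the 38 genes past the threshold was 0, and 0 to 1 with a replicate left out, where 0.749% of all genes passed in the main fit. For PGE2 in unstimulated cells the main count of 30 was 28 to 36 under the other settings and 25 to 33 with a replicate left out, and the block gave 36. Of all genes, 28.4% passed there in the main fit, 21.3% to 27.8% with a replicate left out and 47.8% with the block. Both stimulation comparisons kept 34 to 37 called genes throughout, and the block changed no call there. In the main fits of these comparisons 66.5% of all genes passed without and 64.2% with PGE2. Upper-quartile factors moved the median of all genes to −0.13 in both stimulation comparisons and lowered the number of genes with at least a 2-fold rise with PGE2 from 19 to 14. The cause of these differences was not tested.

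Spread between replicates, not depth, limited these results: counting error is small beside it for genes with at least 1143 counts in every library. The labels do not say whether replicates are separate cultures.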
